A study of Mus musculus with 145 samples.

Results

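The genes of oxidative phosphorylation were followed in single-cell transcriptomes of mouse spermatogonial stem cells (SSCs) during reprogramming to germline-derived pluripotent stem cells (gPSCs). The members were chosen by gene symbol alone, as the nuclear genes *Nduf* (subunit series a, b, c, s and v), *Sdha* to *Sdhd*, *Uqcr*, *Cox4* to *Cox8* and *Atp5*, together with the protein genes of the mitochondrial DNA. *Ndufa4l2*, the *Ndufaf* assembly factors and pseudogenes were left out. This gave 96 members among 24615 genes of the filtered STRT-seq table, 83 of them nuclear and 13 mitochondrial, and all 96 passed the filter on low counts. Complex I had 35 nuclear and 7 mitochondrial members, complex II had 4 nuclear members, complex III had 8 and 1, complex IV had 19 and 3, and complex V had 17 and 2. The symbols also took in a few genes that are not structural subunits, which were kept because the rule named them: *Atp5s* and *Atp5sl*, and *Cox7a2l*, a supercomplex factor.

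SSCs of C57BL/6[female] X DBA[male] mice, derived from males of the *Oct4*-EGFP line and grown on mitomycin-treated mouse embryonic fibroblast feeders, were sampled by modified STRT-seq in the original condition, in which no chemicals were added (treatment none). This set had 46 libraries, of which days 0, 8 and 10 gave 1 each, day 12 gave 3, days 14 and 16 gave 6 each, day 18 gave 7, day 20 gave 9, day 23 gave 7 and day 27 gave 5. The line gPSC at passage 1, the same line at passage 15 and mouse embryonic stem cells (mES) gave 1 library each, so that they had no replicates. In the RNA arm of scTrio-seq2, 8 samples were treated with 5C, a mixture of SGC707, vitamin C, EGCG, daphnetin and TUDCA, and sampled on day 12, 14 or 16, and 5 were treated with DMSO and sampled on day 20 or 24, with 8 cells of DMSO sample 5 from day 0. Colonies were picked and cells were taken by mouth pipette, so the cells of a library were chosen by eye. The authors assigned the cells to SSC clusters 1 to 4 (SSC1-4), to the reprogramming clusters RPG1 to RPG4, and to clusters named Fibroblast, Early-pluripotency, Meiotic and Neural, and they did so on the same transcriptomes that are compared here.

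Oxidative phosphorylation takes place in the inner mitochondrial membrane. Complexes I (NADH dehydrogenase) and II (succinate dehydrogenase) pass electrons through ubiquinone to complex III and by cytochrome c to complex IV (cytochrome c oxidase), which reduces oxygen, and complex V (ATP synthase) uses the proton gradient so made to form ATP. Most subunits are encoded in the nucleus, while a few core subunits of every complex except complex II are encoded in the mitochondrial DNA and transcribed there by a polymerase of their own. Several subunits of complexes IV and V exist as isoforms from separate genes, some of them used mainly in testis or in heart and muscle. In spermatogenesis testis isoforms appear, and pluripotent cells are known for a high use of glycolysis.

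Promoters of 4 members are given because their transcripts carry the main contrasts below: *Cox7b2* and *Cox7b*, isoforms of one complex IV subunit that moved in opposite directions, and *Sdhd* and *Atp5g2*, which rose. They are from RefSeq on GRCm38.p6, run from 250 bases upstream to the last base before the start site, read 5′ to 3′ along the gene's strand, and have capitals where 1 of 4 searched motifs matched. *Cox7b2* lies at chr5:71442823-71548205 and its promoter at chr5:71548206-71548455 on the minus strand, *Cox7b* at chrX:106015700-106022450 with its promoter at chrX:106015450-106015699 on the plus strand, *Sdhd* at chr9:50596340-50603849 with chr9:50603850-50604099 on the minus strand, and *Atp5g2* at chr15:102662868-102671047 with chr15:102671048-102671297 on the minus strand. The capitals in *Sdhd* are the GABPA motif and those in *Atp5g2* a pair of overlapping NRF1 motifs on opposite strands; *Sdhd* also had an ERRA match past its start, outside the stretch shown.
Cox7b2: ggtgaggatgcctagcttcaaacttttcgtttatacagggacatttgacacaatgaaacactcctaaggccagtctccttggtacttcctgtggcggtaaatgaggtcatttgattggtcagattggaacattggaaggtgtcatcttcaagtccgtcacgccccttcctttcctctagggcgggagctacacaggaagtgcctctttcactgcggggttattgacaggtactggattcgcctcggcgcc
Cox7b: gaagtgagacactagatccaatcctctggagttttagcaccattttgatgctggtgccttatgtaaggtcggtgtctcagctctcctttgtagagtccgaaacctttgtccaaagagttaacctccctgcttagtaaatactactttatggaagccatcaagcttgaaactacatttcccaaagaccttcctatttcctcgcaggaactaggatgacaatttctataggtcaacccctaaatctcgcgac
Sdhd: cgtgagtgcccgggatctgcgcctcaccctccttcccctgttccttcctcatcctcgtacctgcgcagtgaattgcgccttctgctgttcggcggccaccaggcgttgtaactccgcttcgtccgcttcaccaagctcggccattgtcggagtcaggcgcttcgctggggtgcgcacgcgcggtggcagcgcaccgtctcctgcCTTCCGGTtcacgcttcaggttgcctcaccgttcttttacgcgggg
Atp5g2: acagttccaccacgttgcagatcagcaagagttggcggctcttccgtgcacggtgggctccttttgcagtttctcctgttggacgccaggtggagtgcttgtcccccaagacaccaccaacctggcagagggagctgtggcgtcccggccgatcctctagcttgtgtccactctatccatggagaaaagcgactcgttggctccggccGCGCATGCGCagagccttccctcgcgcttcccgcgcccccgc

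The motifs searched on both strands, from 250 bases before to 50 after the start, were GCGCATGC for NRF1, ACCGGAAG for GABPA, TCAAGGTCA for ERRA and AAGATGGCG for YY1, factors that are known to bind promoters of respiratory genes. Of the 83 nuclear members 69 had a promoter in the table. The NRF1 motif was in 10 of them (14.5%), against 3.05% of all 27025 genes with a promoter and 4.91% of the 13390 that passed the filter on low counts. GABPA was in 6 (8.70%, against 2.60% and 4.19%), ERRA in 2 (2.90%, against 0.466% and 0.329%) and YY1 in 8 (11.6%, against 1.64% and 2.72%). Among the members that rose in RPG3, NRF1 was in 5 of 43 and among the other members in 5 of 26, YY1 was in 6 of 43 and 2 of 26, GABPA in 3 of 43 and 3 of 26, and ERRA in 2 of 43 and 0 of 26. A match describes letters only, and *Cox7b2* and *Cox7b* had none of the 4 in this window.

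Depth was 15975410 to 34609591 UMIs (molecules counted) per library in the original condition with 4339 cells in all, 10833720 to 14807169 in the 3 line libraries with 125 cells, 5880774 to 10723044 in the 5C samples with 724 cells and 3888311 to 8059618 in the DMSO samples with 365. UMIs were summed per library and cluster where a library held at least 5 cells of it, and the sum was the replicate. This gave 36 sums of SSC1-4, 7 of RPG1, 3 of RPG2, 8 of RPG3 and 2 of RPG4. The summed level of 6 SSC markers was 1466 to 2383 CPM (UMIs scaled to a common library total, here without TMM and for single genes below with TMM factors) in SSC1-4, 1425 to 1703 in RPG1 and 300.2 to 552 in RPG3, and that of 6 pluripotency markers was 63.9 to 397 in SSC1-4, 172 to 449 in RPG1 and 1805 to 2271 in RPG3. Fibroblast markers, which the feeder cells share, were at 13.04 to 142 in SSC1-4 and at 13.6 to 40.4 in RPG3 against 284 to 2246 in the cluster named Fibroblast. The cluster named Early-pluripotency had pluripotency markers at 114 to 227, within the SSC1-4 range, and the neural markers in the cluster named Neural ranged from 0 to 123, so that these names are used here only as the authors' labels.

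The nuclear members took overlapping shares of all UMIs in SSC1-4 and RPG1 to RPG4 when all days were pooled. With SSC1 to SSC4 merged, the mitochondrial members had their lowest medians in RPG2, RPG3 and RPG4. The merged SSC1-4 holds unlike clusters: in 11 libraries with both, the mitochondrial median was 0.713% in SSC3 and 1.14% in SSC1. In SSC1-4 the 83 nuclear members held 2.88% to 4.20% of UMIs (median 3.43%, n = 36) and the 13 mitochondrial members 0.687% to 1.65% (median 0.875%). In RPG1 the nuclear share was 3.02% to 3.67% (median 3.35%, n = 7) and the mitochondrial share 0.720% to 0.975% (median 0.885%). The RPG1 values lay within those of SSC1-4 for both parts. In RPG2 the nuclear share was 2.87%, 3.51% and 3.64% and the mitochondrial share 0.552%, 0.653% and 0.743% (n = 3). In RPG3 the nuclear share was 3.19% to 3.79% (median 3.52%, n = 8) and the mitochondrial share 0.537% to 0.779% (median 0.699%). In RPG4 the nuclear share was 3.04% and 3.31% and the mitochondrial share 0.592% and 0.601% (n = 2). Both RPG4 values of the mitochondrial share lay under the lowest of SSC1-4, and the RPG2 and RPG3 values overlapped with the lower part of its range. The mitochondrial median was also under that of SSC1-4 in Early-pluripotency (0.762%, 0.732% to 0.785%, n = 3), Neural (0.815%, 0.662% to 0.976%, n = 12), Fibroblast (0.831%, 0.594% to 0.903%, n = 5) and Meiotic (0.867%, 0.807% to 0.941%, n = 6). All Early-pluripotency values lay inside the SSC1-4 range, and the lowest Fibroblast and Neural values lay under it. Within batches the medians were alike: in RPG3 the mitochondrial share had a median of 0.704% in the 5 sums of batch B1 and 0.694% in the 3 of batch B2, and in SSC1-4 it was 0.891% and 0.827%. The SSC1-4 shares also differed between days, and the clusters came from different days. Over the SSC1-4 sums the median nuclear share was 3.63% on day 18 (n = 5), 3.15% on day 20 (n = 7), 3.03% on day 23 (n = 6) and 3.03% on day 27 (n = 3), after 3.65% in the single sum of day 0, and the mitochondrial share was 0.969%, 0.808%, 0.742% and 0.751% after 1.05%. On day 12 the nuclear share of RPG3 was 3.19% in 1 sum, below the 3.53% and 3.73% of SSC1-4 on that day. It was 3.61% and 3.79% on day 18, against 3.48% to 3.81% in SSC1-4 of that day. On day 20 it was 3.24%, 3.38% and 3.63% against 2.89% to 3.54%, and on day 23 3.42% and 3.74% against 2.88% to 3.47%, so that 1 RPG3 sum lay above the SSC1-4 range on each of these 2 days. The mitochondrial share of RPG3 lay under the same-day range of SSC1-4 in 6 of the 7 sums of days 18, 20 and 23. The other was at 0.725% on day 20 against a lowest SSC1-4 value of 0.714%. On day 12 it was 0.694% against 0.982% and 1.08%. A share is set by the cells that were summed and by the RNA in each of them, and the 2 cannot be told apart.

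**Figure D1:**
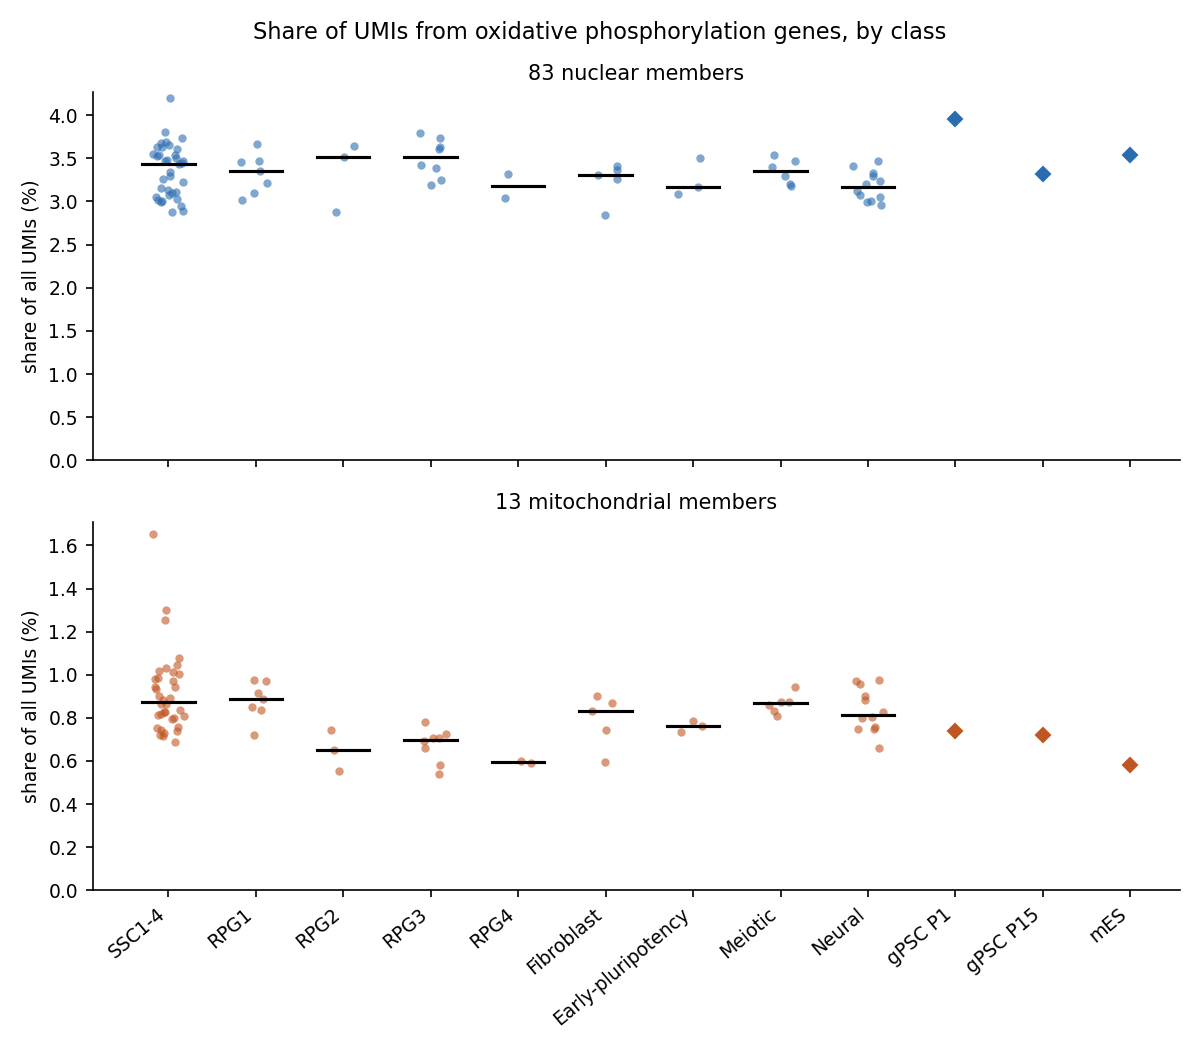
Share of all UMIs (%) from the 83 nuclear (top) and 13 mitochondrial members (bottom), with 1 point per library sum, bars at the median, and diamonds for the lines, which had 1 library each. The nuclear medians of the 9 merged clusters lay between 3.16% and 3.52%, and the mitochondrial shares of RPG2, RPG3 and RPG4 were all at or below 0.779%.

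Single members were tested with edgeR's quasi-likelihood test in 1 fit over all 9 clusters (82 sums, 20030 genes), with p-values adjusted by the method of Benjamini and Hochberg across the genes tested and calls made below 0.05. In RPG3 against SSC1-4, 50 nuclear members rose and 8 fell, and 4 mitochondrial members fell and none rose, where 56.8% of all genes were called (25.2% higher and 31.5% lower). The median log2 fold change was 0.28 over nuclear members, −0.21 over mitochondrial members and −0.25 over all genes tested, so the mitochondrial median was close to that of all genes and the nuclear one stood above it. Rises were called in each of complexes I to V, fewest in complex II, while the falls that exceeded 3 in log2 were of testis isoforms of complex IV. Values of 8 members in RPG3 did not overlap with those in SSC1-4 (*Atp5j*, *Cox6b2*, *Cox7b*, *Cox7b2*, *Ndufa1*, *Ndufb7*, *Ndufv2* and *Uqcr10*), where 6.08% of all genes did not overlap. The 2 clusters shared 2 libraries: with these as a block 33 members rose and 3 fell, where 29.9% of all genes were called, and without the block in the same libraries 19 and 2, where 23.9% were. The mitochondrial median was then −0.07 and −0.10. With sums per batch and day 31 members rose and 6 fell, where 38.4% were called. With day as a covariate the medians were 0.32 and −0.20 for nuclear and mitochondrial members, and of the members named below *Cox4i1*, *Ndufb9* and *Cox6a2* were no longer called.

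**Figure D2:**
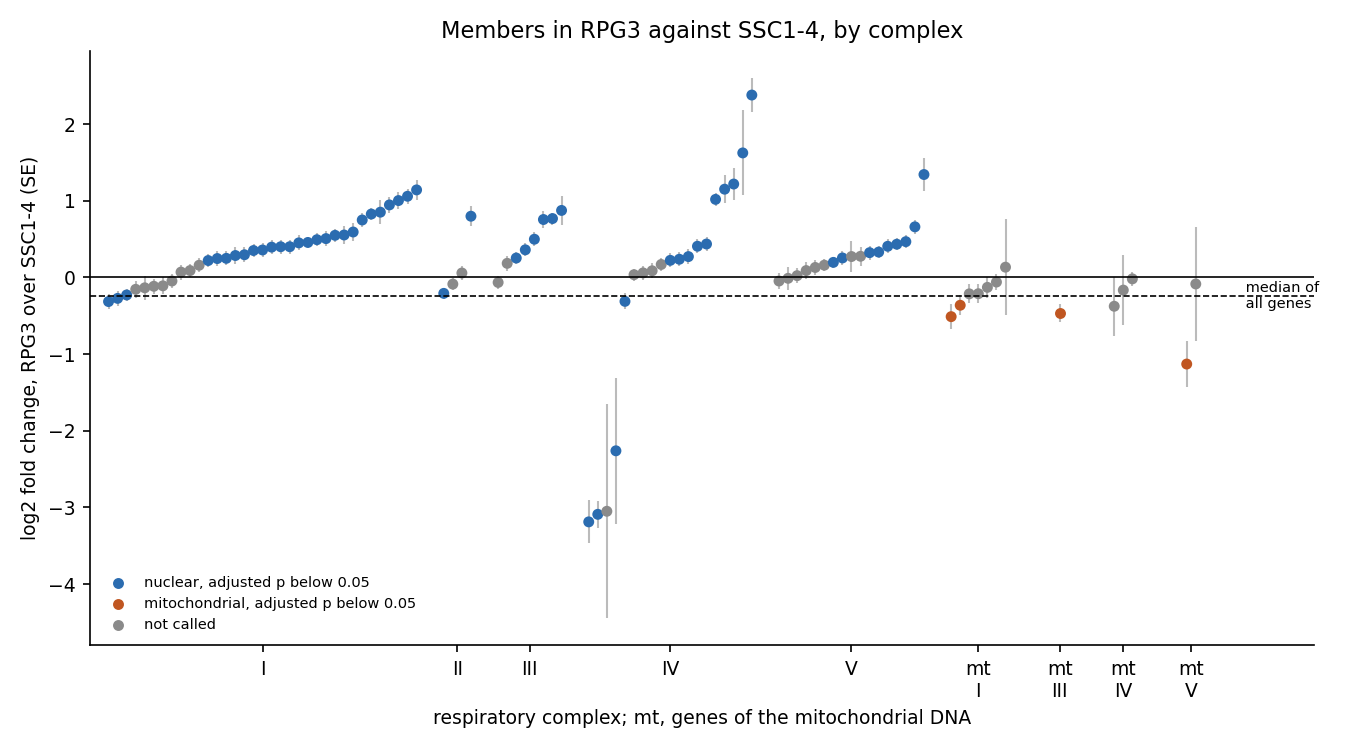
Log2 fold change with its standard error of the 96 members in RPG3 over SSC1-4 (y axis), ordered by size within each complex (x axis), in blue or orange where the adjusted p was below 0.05 and in grey otherwise, with a dashed line at the median of all genes tested (−0.25). Of the 35 nuclear members of complex I 24 rose and 3 fell, while the lowest points of the plot are in complex IV.

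In complex I, 24 of 35 nuclear members rose and 3 fell, with a median log2 fold change of 0.36. *Ndufb7*, an accessory subunit, was at 387, 525 and 647 CPM (lowest, median and highest) in RPG3 and at 124, 226 and 378 in SSC1-4, so that the groups did not overlap (log2 fold change 1.14, SE 0.13, edgeR adjusted p = 9.91e-13). *Ndufa1*, an accessory subunit of the membrane arm, was at 387, 417 and 495 CPM against 81.9, 214 and 374 (log2 fold change 1.002, SE 0.11, edgeR adjusted p = 8.19e-13). *Ndufv2*, a core subunit with an iron-sulfur cluster, was at 479, 585 and 670 CPM against 141, 329 and 465, again without overlap. The falls were small: *Ndufs8*, another iron-sulfur subunit, fell by 0.32 on the log2 scale (edgeR adjusted p = 0.00277), *Ndufb9* by 0.27 and *Ndufv1*, which binds NADH, by 0.23. *Ndufa7*, the complex I member with the most UMIs, was not called (log2 fold change 0.16, edgeR adjusted p = 0.135).

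In complex II, which has no mitochondrial gene, 1 of 4 members rose and 1 fell. *Sdhd*, a membrane anchor, was at 214, 328 and 382 CPM in RPG3 and at 99.0, 182 and 251 in SSC1-4 (log2 fold change 0.80, SE 0.13, edgeR adjusted p = 1.33e-07). *Sdha*, the flavoprotein that oxidises succinate, fell by 0.21 on the log2 scale (207, 256 and 305 CPM against 234, 294 and 370, edgeR adjusted p = 0.0161), with ranges that overlap. The iron-sulfur subunit gene *Sdhb* (log2 fold change 0.06, edgeR adjusted p = 0.602) and the second anchor *Sdhc* (−0.09, edgeR adjusted p = 0.340) were not called. The 4 subunit genes of this complex thus did not move together.

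In complex III, 6 of 8 nuclear members rose and none fell, with a median log2 fold change of 0.43. *Uqcr10*, a small subunit, was at 629, 807 and 969 CPM in RPG3 and at 329.9, 471 and 594 in SSC1-4, without overlap (log2 fold change 0.77, SE 0.08, edgeR adjusted p = 2.34e-14). The core protein gene *Uqcrc2* had a log2 fold change of 0.87, and *Uqcrfs1*, the Rieske iron-sulfur protein, one of 0.76 with 234, 351 and 403 CPM against 122, 205 and 259. *Uqcr11*, the member with the most UMIs, was not called (0.18, edgeR adjusted p = 0.110). In complex V, 9 of 17 nuclear members rose and none fell, with a median of 0.27. *Atp5j*, coupling factor 6 of the stalk, was at 627, 758 and 952 CPM against 211, 493.4 and 612, without overlap (log2 fold change 0.66, SE 0.09, edgeR adjusted p = 4.46e-10).

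Complex IV had the most varied members, with 10 of 19 nuclear genes higher and 4 lower in RPG3, a median log2 fold change of 0.22, and isoforms of the same subunit that parted. *Cox7b2*, the testis-type isoform of subunit VIIb, was at 19.4, 30.97 and 93.4 CPM in RPG3 and at 218, 327 and 567 in SSC1-4, and even the highest RPG3 library was under the lowest SSC1-4 sum (log2 fold change −3.09, SE 0.17, edgeR adjusted p = 2.38e-28). *Cox7b*, the ubiquitous isoform, was at 586, 669.5 and 870.3 CPM in RPG3 and at 222, 339 and 484 in SSC1-4, also without overlap (log2 fold change 1.02, SE 0.08, edgeR adjusted p = 5.44e-20). The 2 genes had near-equal medians in SSC1-4. In RPG3 UMIs of the ubiquitous gene made up nearly all of the pair. *Cox8c*, the testis-type isoform of subunit VIII, fell too, from 9.89, 80.4 and 112 CPM in SSC1-4 to 2.87, 6.38 and 20.96 in RPG3 (log2 fold change −3.19, SE 0.28, edgeR adjusted p = 1.55e-17), and its ranges touched because 1 SSC1-4 sum was at 9.89. The ubiquitous *Cox8a* had a log2 fold change of 0.24 (edgeR adjusted p = 0.0183) and the muscle-type *Cox8b* was at 0 CPM in all 8 RPG3 sums and reached 1.31 in SSC1-4.

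*Cox6b2*, known as the testis-type isoform of subunit VIb, moved the other way. It was at 78.0, 195 and 336 CPM in RPG3 and at 7.91, 37.2 and 74.9 in SSC1-4, so that the lowest RPG3 library lay just above the highest SSC1-4 sum (log2 fold change 2.38, SE 0.23, edgeR adjusted p = 6.06e-16). Its ubiquitous partner *Cox6b1* had a log2 fold change of 0.22 (edgeR adjusted p = 0.0328). The genes with testis-type names therefore did not share a direction, with *Cox7b2* and *Cox8c* lower and *Cox6b2* higher. *Cox7a1*, the heart and muscle isoform of subunit VIIa, was at 109, 167 and 236 CPM against 17.1, 75.9 and 164 (log2 fold change 1.15, SE 0.19, edgeR adjusted p = 1.16e-07), while *Cox7a2* (0.17, edgeR adjusted p = 0.0885) and *Cox7a2l* (0.06, edgeR adjusted p = 0.578) were not called. *Cox4i2*, an isoform tied to lung and hypoxia, was low in both groups, at 0, 16.04 and 32.05 CPM against 0, 3.83 and 22.2 (log2 fold change 1.62, SE 0.55, edgeR adjusted p = 0.00984), and the major isoform gene *Cox4i1* fell by 0.31 (edgeR adjusted p = 0.00793). *Cox6a2*, a heart and muscle isoform, was near 0, at most 2.50 CPM in RPG3 and 25.1 in SSC1-4, and *Cox6a1* was not called (0.09, edgeR adjusted p = 0.462). *Cox5a*, which has no isoform here, rose from 8.65, 62.1 and 125 to 42.2, 145 and 196 CPM (log2 fold change 1.22).

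Among the 3 genes that encode the same c subunit of ATP synthase, *Atp5g2* rose and the other two moved little. *Atp5g2* was at 8.44, 57.9 and 80.0 CPM in RPG3 and at 4.96, 22.5 and 55.2 in SSC1-4 (log2 fold change 1.34, SE 0.21, edgeR adjusted p = 5.88e-08), with overlapping ranges. *Atp5g3* had a log2 fold change of 0.20 (edgeR adjusted p = 0.0151) and *Atp5g1*, the complex V member with the most UMIs, −0.05 (edgeR adjusted p = 0.731). With each RPG3 sum left out in turn, the calls of *Atp5g3*, *Cox8a*, *Cox6b1* and *Ndufb9*, all under 0.3 in size, were lost without at least 1 of them.

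**Figure D3:**
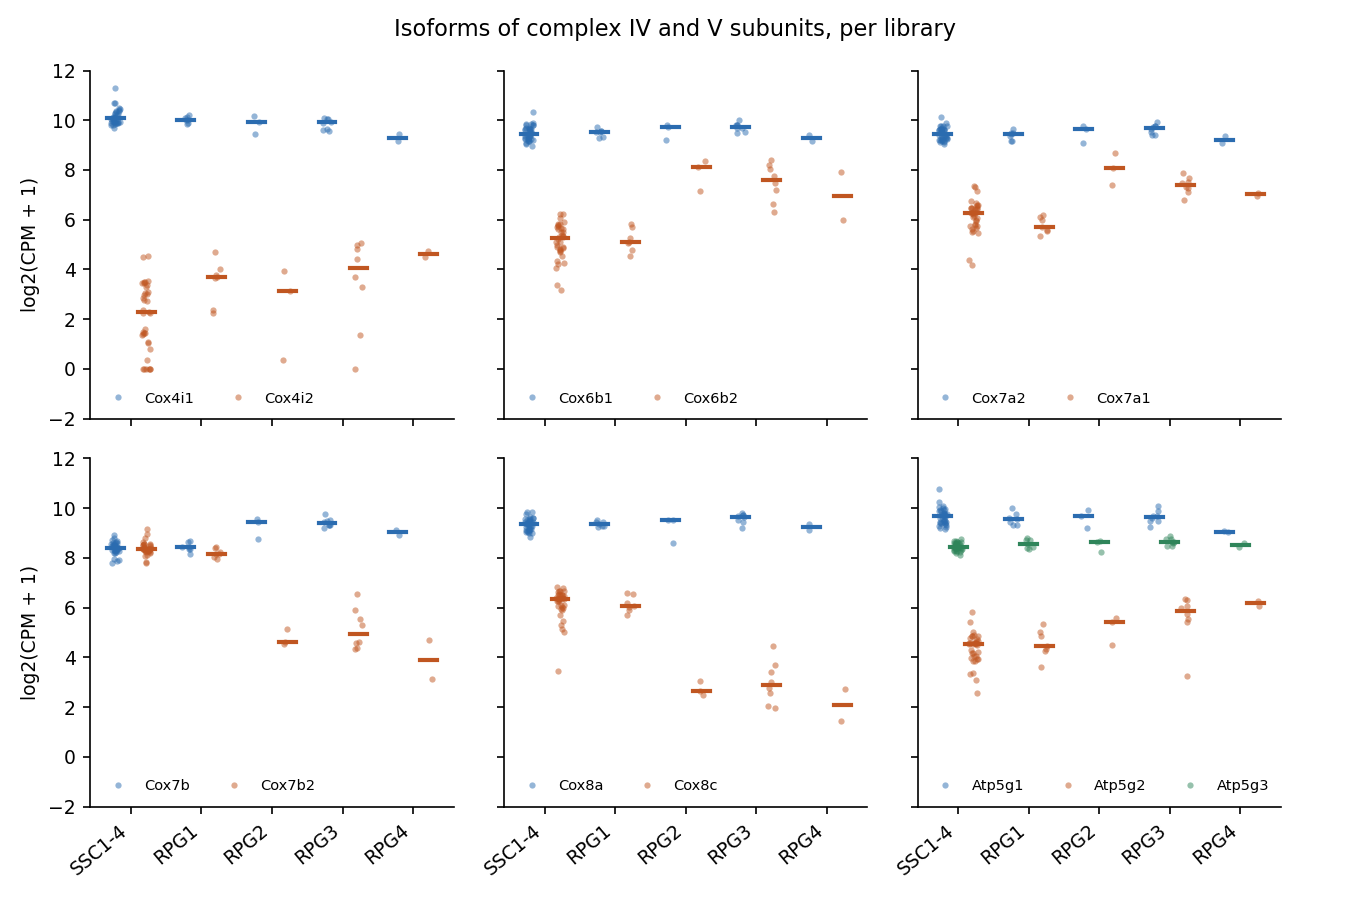
Levels per library sum, as log2(CPM + 1), of isoform genes of complex IV subunits and of the 3 c subunit genes of complex V in SSC1-4 and RPG1 to RPG4, with bars at the median. From RPG1 to RPG2 the medians of *Cox7b2* and *Cox8c* go from 283 to 23.4 CPM and from 66.1 to 5.30 CPM, and those of *Cox6b2* and *Cox7a1* from 33.02 to 274 CPM and from 51.3 to 269.9 CPM.

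Of the 13 mitochondrial members 12 had a log2 fold change below 0 in RPG3 against SSC1-4 and 4 were called. *mt.Cytb*, the complex III gene, was at 1176, 1472 and 2156 CPM in RPG3 and at 1416, 2089.8 and 4304 in SSC1-4 (log2 fold change −0.46, SE 0.12, edgeR adjusted p = 5.93e-04). *mt.Nd3* (−0.51, edgeR adjusted p = 0.00507) and *mt.Nd4* (−0.36, edgeR adjusted p = 0.0138), both of complex I, were lower as well. *mt.Atp6* had the largest difference (−1.13, edgeR adjusted p = 8.58e-04), at 2.299, 3.93 and 8.29 CPM against 2.48, 9.44 and 19.5, but it rested on 10765 UMIs in all, and the highest value was that of *mt.Nd4l* (0.13, edgeR adjusted p = 0.871). *mt.Co2*, *mt.Co3*, *mt.Nd4l* and *mt.Atp8* had only 2516, 2400, 1266 and 374 UMIs, against 459840 to 2147509 for each of the other 8, so that the mitochondrial sums describe those 8 genes. *mt.Nd5* with *mt.Nd6*, *mt.Atp8* with *mt.Atp6* and *mt.Nd4l* with *mt.Nd4* overlap in the annotation, and their reads may not be separable.

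In RPG2 the isoforms *Cox6b2* and *Cox7a1* were higher and *Cox7b2* and *Cox8c* lower than in SSC1-4, the same directions as in RPG3. RPG2 and RPG3 were not tested against each other. Against SSC1-4 25 nuclear members rose and 5 fell and 3 mitochondrial members fell, where 36% of all genes were called, with medians of 0.22, −0.41 and −0.52 for nuclear members, mitochondrial members and all genes. *Cox6b2* was at 140.0, 274 and 329 CPM (log2 fold change 2.69, SE 0.31) and *Cox7a1* at 166, 269.9 and 416 CPM (1.89, SE 0.26), both above every SSC1-4 sum. *Cox7b2* was at 22.2, 23.4 and 33.97 CPM (−3.68, SE 0.29) and *Cox8c* at 4.62, 5.30 and 7.24 CPM (−3.72, SE 0.47), both below every SSC1-4 sum. Groups of 8 members did not overlap, where 8.39% of all genes did not. *Cox5a* (1.26), *Ndufb7* (1.16), *Ndufa12* (0.89), *Cox7b* (0.88) and *Sdhd* (0.71) also rose. *Sdhc*, the anchor that was not called in RPG3, fell to 185, 199 and 226 CPM against 282, 357 and 533 in SSC1-4 (−0.80, SE 0.13), and *Ndufs5* (−0.65) and *Cox7a2l* (−0.47) fell with it. The *Ndufs5* call was lost without any 1 of the 3 RPG2 sums and that of *Cox7a2l* without day 12 replicate 2. Unlike in RPG3, *Atp5g2* (0.76, edgeR adjusted p = 0.0621) and *Cox4i2* (0.47, edgeR adjusted p = 0.691) were not called, and 2 members of complex V rose. *mt.Co1*, the catalytic core of complex IV, was at 368, 376 and 482 CPM against 439, 593 and 977 (−0.64, edgeR adjusted p = 5.67e-04), and *mt.Atp6* and *mt.Cytb* were the other mitochondrial members called (−1.15 and −0.45). Without the RPG2 sum of day 14 replicate 5, 20 members were called in place of 33, and with sums per batch and day 13. With the library as a block 41 were called, 37 higher and 4 lower. These counts are not set beside the share of all genes called in the same fits. With each RPG2 sum left out in turn the nuclear median ran from 0.09 (without day 14 replicate 5) to 0.36 (without day 12 replicate 2). The mitochondrial median turned to 0.04 with the library as a block and to 0.05 when those libraries were fitted with no block. The comparisons of RPG1 to RPG4 with SSC1-4 share their SSC1-4 sums and are given side by side.

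In RPG4, which rested on 2 sums of day 20, 11 nuclear members rose and 10 fell and 4 mitochondrial members fell, where 27.7% of all genes were called. The median log2 fold change was −0.06 over nuclear members, −0.69 over mitochondrial members and −0.54 over all genes. With DESeq2 size factors the all-gene median was −0.39, 18 nuclear members rose and 8 fell, and the nuclear median was 0.09. Of all genes 3034 then rose and 2638 fell, against 2515 and 3028 in the main fit. *Cox7b2* was at 7.70 and 24.8 CPM and *Cox8c* at 1.73 and 5.59, both under every SSC1-4 sum (−4.45 and −4.48). *Atp5g2* was at 66.0 and 76.7 CPM, above every SSC1-4 sum (1.72, SE 0.36), and *Uqcrc2* (1.18), *Sdhd* (0.88), *Ndufb7* (0.80) and *Cox7b* (0.62) rose too. *Cox6b2* was at 61.8 and 240.5 CPM (1.97, SE 0.40), and the lower of these lay within SSC1-4. *Cox4i1*, the complex IV member with the most UMIs, was at 573 and 691 CPM against a lowest value of 826 in SSC1-4 (−0.88, SE 0.21, edgeR adjusted p = 4.79e-04), and *Ndufv1* (−0.72), *Ndufb9* (−0.69) and *Atp5g1* (−0.67) also fell. *mt.Atp6* (−2.38), *mt.Cytb* (−1.07), *mt.Nd4* (−0.80) and *mt.Nd6* (−0.69) were the mitochondrial members called. With the day 20 replicate 1 or replicate 2 sum left out, 9 or 11 members were called in place of 25, and the other sum was then assumed to vary like the other clusters. Without replicate 1 *Uqcrc2* was at 0.60 and *Cox6b2* at 0.68, and these calls were lost with those of *Sdhd* (0.64), *Cox7b* (0.51), *Ndufb7* and *Atp5g1*. Without replicate 2 those of *Cox4i1*, *Ndufv1*, *Ndufb9*, *Ndufb7* and *Atp5g1* were lost. Groups of 16 members did not overlap, where 13% of all genes did not, as 2 sums readily give.

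Few members differed between RPG1 and SSC1-4. A single one was called, where 4.61% of all genes were: *Cox6a2* was at 0 to 0.198 CPM in RPG1 and at 0 to 25.1 in SSC1-4, and this call was lost with sums per batch and day and with the library as a block. At an unadjusted p under 0.05 there were 4 nuclear members, all lower, and 0 mitochondrial ones, and DESeq2 called 1 member. The median log2 fold change was −0.03 over nuclear members, −0.08 over mitochondrial members and −0.05 over all genes. The mitochondrial median turned to 0.18 with the library as a block, to 0.15 in the same libraries with no block to 0.07 with day as a covariate and to 0.08 in cells of at least 100000 UMIs. *Cox7b2* had a log2 fold change of −0.21 (SE 0.15, edgeR adjusted p = 0.485), *Cox6b2* of −0.07 (SE 0.28, edgeR adjusted p = 0.945) and *Cox7b* of 0.04 (SE 0.09, edgeR adjusted p = 0.879).

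RPG3 and RPG1 could be compared within 7 libraries that held both (days 18, 20 and 23), which removes differences between libraries. The nuclear share was higher in RPG3 in 7 of 7 libraries, by 1.03 to 1.12 times (medians 3.61% and 3.35%). The mitochondrial share was lower in RPG3 in 7 of 7, at 0.682 to 0.800 of the RPG1 value (medians 0.704% and 0.885%). The mitochondrial UMIs per nuclear UMI of the members therefore fell in every library, from a median of 0.264 to 0.195. Median UMIs per cell were higher in RPG3 in 6 of the 7, by at most 1.34 times, and the part of depth in these shares was not tested. Gene by gene, 53 of 83 nuclear members were higher in RPG3 in all 7 libraries and 3 lower, and of the 13 mitochondrial members 3 were lower in all 7 and 0 higher, where 17.7% of all 20030 genes tested were higher and 16.5% lower in every one of these libraries.

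**Figure D4:**
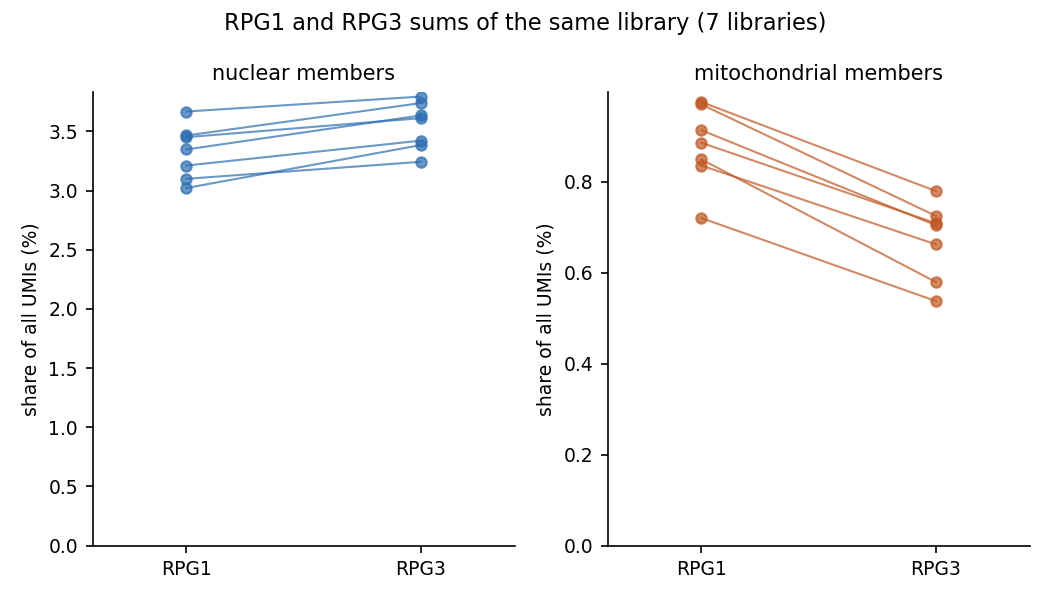
Share of all UMIs (%) from nuclear (left) and mitochondrial members (right) in the RPG1 and RPG3 sums of 7 libraries, with a line joining the sums of a library. All 7 nuclear lines rise, to a median of 3.61%, and all 7 mitochondrial lines fall, to 0.704%.

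In the test over all sums, 39 nuclear members were higher in RPG3 than in RPG1 and 2 lower, with no mitochondrial member called, where 41.6% of all genes were called (19% higher and 22.6% lower). With the library as a block 57 nuclear members were higher and 7 lower and 6 mitochondrial members lower, where 61.6% of all genes were called (29.9% higher and 31.6% lower). With sums per batch and day 18 members were higher and 2 lower, where 23.2% of all genes were called. Without the block, 3 mitochondrial members were lower at an unadjusted p under 0.05, and DESeq2 called 1. The median log2 difference was 0.30 over nuclear members, −0.16 over mitochondrial members and −0.07 over all genes. *Cox7b2* was at 245, 258, 303, 282, 283, 333 and 350.1 CPM in RPG1 and at 38.3, 22.8, 19.4, 19.5, 59.5, 23.7 and 93.4 in RPG3 of the same libraries in the same order (day 18 replicates 3 and 5, day 20 replicates 1, 2 and 8, and day 23 replicates 1 and 2), with 45.7 in the RPG3 sum of day 12 replicate 2. Its lowest RPG1 value was above the highest RPG3 value (log2 difference −2.88, SE 0.19), and day 23 replicate 2 was the highest in both clusters. *Cox6b2* was at 37.6, 51.4, 22.2, 26.5, 32.04, 33.02 and 55.1 CPM in RPG1 and at 78.0, 259, 176, 214, 147, 291 and 336 in RPG3, again without overlap (2.44, SE 0.37), with the RPG3 sum of day 18 replicate 3 standing lowest. *Cox7a1* (1.63, SE 0.27), *Ndufb7* (1.29, SE 0.19), *Ndufb5* (1.001, SE 0.14), *Cox7b* (0.98, SE 0.12) and *Cox8c* (−3.11, SE 0.31) did not overlap either, among 14 such members, where 14% of all genes did not overlap. *Cox6a2* was called (3.32) on levels of at most 2.50 CPM, and with sums per batch and day its log2 difference was −4.1.

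Within the SSCs the share fell in both parts from cluster SSC1 to SSC3. In the 11 libraries that held both, the nuclear share was lower in SSC3 in 11 of 11, at 0.711 to 0.930 of the SSC1 value (medians 3.08% and 3.81%), and the mitochondrial share in 11 of 11, at 0.400 to 0.771 (medians 0.713% and 1.14%). Median UMIs per cell moved with it, being higher in SSC3 in 11 of 11 libraries by 1.72 to 26.4 times (medians 394979 and 91510), and their part in the result was not tested. With the library as a block 2 of 81 nuclear members tested rose and 49 fell and 8 of 9 mitochondrial members fell, where 12.8% of all genes were called (5.9% higher and 6.91% lower), with medians of −0.32, −0.91 and 0.08 for nuclear members, mitochondrial members and all genes. *mt.Cytb* was at 1291, 1552 and 2100.3 CPM in SSC3 and at 2354, 2781 and 5022 in SSC1, without overlap, where 0.703% of all genes did not overlap (log2 difference −0.94, SE 0.08), and *mt.Nd6* (−1.09), *mt.Nd4* (−0.98) and *mt.Nd2* (−0.97) had the largest falls. *Cox8c* rose, at 78.7, 108 and 154 CPM against 16.3, 57.5 and 99.4 (1.14, SE 0.20), and *Cox4i2* rose on low levels (2.19, SE 0.73). In cells of at least 100000 UMIs alone the mitochondrial median was −0.59.

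In the clusters off the RPG path 0 to 10 members were called, where 1.29% to 10.7% of all genes were. These counts are no result about the members alone. In the Fibroblast cluster 1 member was called, *Cox6b2*, where 5.63% of all genes were, at 42.2, 60.9 and 113 CPM against 7.91, 37.2 and 74.9 (0.91, SE 0.29, edgeR adjusted p = 0.0446), and the call was lost without the sum of day 8 replicate 1, day 10 replicate 1 or day 27 replicate 5, with day as a covariate and with the library as a block. In the Early-pluripotency cluster *Cox6a2*, at 0 CPM in all 3 sums, and *mt.Nd3*, at 130.3, 234 and 314 CPM against 189, 421 and 612 (−0.92, edgeR adjusted p = 0.0498), were called lower, where 1.29% of all genes were called; with the library as a block *mt.Nd3* had a log2 difference of 0.13. Neither call held with batch or day as a covariate, with sums per batch and day, or without day 12 replicate 2 or day 18 replicate 4, and 1 was left without day 14 replicate 3. In the Meiotic cluster edgeR called 0 members, where 1.86% of all genes were called. At an unadjusted p under 0.05 there were 8 nuclear members and 0 mitochondrial ones, and DESeq2 called 2 nuclear members, both lower. With the library as a block edgeR called 7 and with day as a covariate 10, all lower, where 0.683% and 1.33% of all genes were called. The count stayed at 0 in the libraries of the block without it and with sums per batch and day. In the Neural cluster *Sdhd* rose (0.35, edgeR adjusted p = 0.0340) and 6 nuclear members fell, of which *Cox8c* (−0.84), *Cox7b2* (−0.45) and *Ndufa11* (−0.34) had the largest differences, where 10.7% of all genes were called (5.77% higher and 4.97% lower); *mt.Co1* rose (0.23) and *mt.Nd1* fell (−0.29). With the library as a block 4 members were called in place of 10 and with day as a covariate 2, where 4.31% and 5% of all genes were called. *Cox7b2* was at 237 to 368 CPM in the Fibroblast, 249.8 to 344 in the Early-pluripotency, 292 to 381 in the Meiotic and 168 to 300.3 in the Neural sums, all of which lay above its highest RPG3 value of 93.4.

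The lines, with 1 library each and no test, had *Cox7b2*, *Cox7b* and *Cox6b2* within the RPG3 ranges, in CPM of all UMIs without TMM scaling. *Cox7b2* was at 59.1 CPM in gPSC at passage 1, 25.8 at passage 15 and 21.3 in mES, *Cox7b* at 745, 625.2 and 653, and *Cox6b2* at 173, 249.9 and 232. *Cox8c* had 10, 3 and 0 UMIs, where a count of 0 in 14807169 allows up to 0.249 CPM (exact Poisson, 95%, for counting error only). The nuclear members held 3.95% of UMIs at passage 1, 3.31% at passage 15 and 3.53% in mES, and the mitochondrial members 0.740%, 0.719% and 0.580%.

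In the scTrio-seq2 samples the share of the nuclear members was lower under 5C than under DMSO in RPG3 and RPG1, and overlapped between treatments in SSC1-4. Treatment went with day (12 to 16 under 5C, 20 and 24 under DMSO) and the RPG3 and RPG1 sums under DMSO came from samples 1 and 2, so that treatment, day and sample cannot be told apart. In RPG3 the nuclear share was 3.90%, 4.17%, 4.16%, 4.34%, 4.29% and 4.27% in 5C samples 1, 3, 5, 6, 7 and 8 and 5.36% and 5.24% in DMSO samples 1 and 2, and every 5C value was below both. In RPG1 it was 3.42%, 3.74%, 3.64% and 3.86% in 5C samples 2, 5, 6 and 8 and 4.75% and 4.61% under DMSO, again apart. In SSC1-4 it was 3.25% to 3.82% in 8 5C samples and 3.95%, 3.67% and 3.82% in DMSO samples 3, 4 and 5, and these ranges overlapped. The RPG3 sums held 7 to 54 cells under 5C and 66 and 74 under DMSO. Cells of RPG3 also held more detected genes under 5C, with medians of 5626 to 7436 per cell against 5079 and 4906. In RPG1 both depth measures were higher under 5C without overlap, with medians of 6102 to 7633 genes per cell against 4958 and 4242 and of 61677 to 121490 UMIs per cell against 47910 and 42732. The part of depth in the differences was not tested. The mitochondrial share of RPG3 was 1.23% to 1.502% under 5C and 1.35% and 1.17% under DMSO.

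Markers of cell identity also moved with the treatment. In RPG3 the summed level of the 6 SSC markers, all detected, was 403 to 738 CPM under 5C and 271 to 274 under DMSO, and that of the 2 early-pluripotent markers 286 to 339 against 188 to 207, so that both were higher under 5C without overlap. The pluripotency markers of RPG3 overlapped, at 1896 to 3207 against 2452 to 2583. In RPG1 the 6 meiotic markers were at 435 to 754 CPM against 392 to 398, the Sertoli markers (3 of 4 in the table, with *Gata4* at 0) at 6.89 to 29.3 against 0 to 3.53, and the 2 red blood cell markers, with *Hbb.bs* at 0, at 0 to 1.10 against 2.22 to 3.53. In SSC1-4 the 7 fibroblast markers, all detected and shared by feeder cells, were at 6.11 to 26.5 CPM under 5C and at 42.4 to 70.3 under DMSO, again apart. The other marker lists overlapped between treatments in each cluster, and the part of these markers in the differences of the members was not tested.

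**Figure D5:**
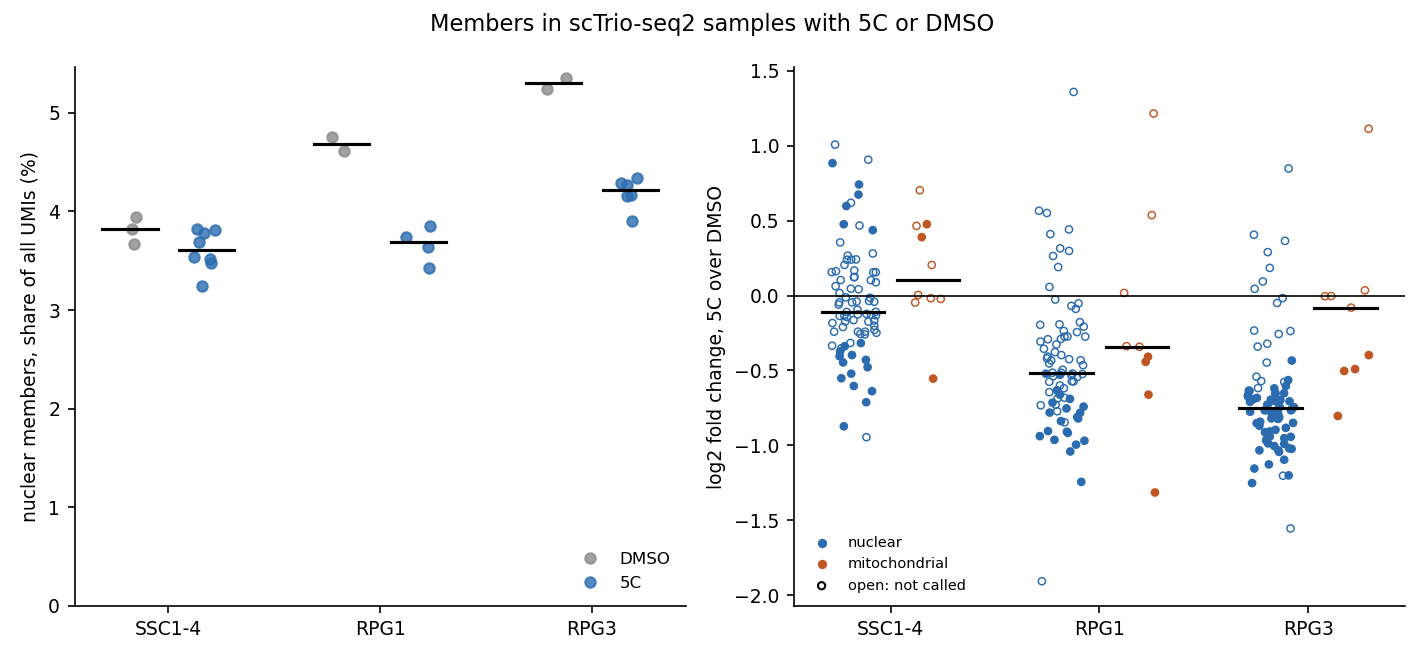
Left, share of all UMIs (%) from nuclear members per sample under DMSO (grey) and 5C (blue) in SSC1-4, RPG1 and RPG3, with bars at the median. Right, log2 fold change of 5C over DMSO for each nuclear (blue) and mitochondrial member (orange) tested, filled where the adjusted p was below 0.05, with nuclear medians of −0.11, −0.52 and −0.75 in SSC1-4, RPG1 and RPG3.

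In RPG3, 59 of 81 nuclear members and 4 of 9 mitochondrial members were lower under 5C and none was higher, where 15.6% of all 11390 genes tested were called (9.23% lower), with medians of −0.75 over nuclear members, −0.08 over mitochondrial members and 0.07 over all genes. The falls covered every complex, with 28 of 35 members of complex I, 2 of 4 of complex II, 7 of 8 of complex III, 10 of 17 of complex IV and 12 of 17 of complex V. *Ndufa6*, an accessory subunit of complex I, was at 348, 294, 363, 344, 392 and 353 CPM in the 6 5C samples and at 809 and 798 under DMSO (log2 fold change −1.20, SE 0.13, edgeR adjusted p = 3.85e-05). *Cox8a* was at 725, 838, 850.1, 805, 889 and 777 CPM against 1905 and 1718 (−1.15, SE 0.11, edgeR adjusted p = 1.88e-05). *Atp5g2* was at 47.9, 20.4, 70.5, 61.0, 34.02 and 49.2 CPM against 121 and 108 (−1.25, SE 0.33, edgeR adjusted p = 0.0166), a call that was lost without either DMSO sample. All 5C values of these 3 genes were under both DMSO values, as in 65 nuclear members, with 1 the other way (*Sdha*), where 31.1% of all genes did not overlap. *mt.Co1* was at 773 to 1123 CPM under 5C and at 1435 and 1737 under DMSO (−0.80), and *mt.Cytb* (−0.50), *mt.Nd2* (−0.49) and *mt.Nd1* (−0.40) were the other mitochondrial members called. Without DMSO sample 1, 37 members were called in place of 63, and without DMSO sample 2, 38; each of these fits had 1 DMSO sample, which was assumed to vary like the 5C samples.

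In RPG1, 22 of 80 nuclear members and 4 of 9 mitochondrial members were lower under 5C and none higher, where 5.61% of all 9350 genes were called (3.45% lower), with medians of −0.52, −0.34 and 0.09. *mt.Co1* was at 1400.2, 1244, 1585 and 957 CPM in 5C samples 2, 5, 6 and 8 and at 3107 and 3347 under DMSO (−1.31, SE 0.15, edgeR adjusted p = 1.49e-05). *Atp5g1* was at 667, 1003, 685 and 628 CPM against 1582 and 1483 (−1.04, SE 0.17), and *Ndufb11*, of the membrane arm of complex I, at 215, 168, 213 and 258 against 378 and 627 (−1.24, SE 0.24), a call that was lost without DMSO sample 2 (−0.80, again with 1 DMSO sample left). The 5C values lay below the DMSO values in all 3. Without 5C sample 2, 17 members were called in place of 26. Groups did not overlap in 48 nuclear members, 47 of them lower under 5C, where 33.5% of all genes did not overlap.

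In SSC1-4, 6 of 81 nuclear members rose and 14 fell and 2 of 10 mitochondrial members rose and 1 fell, where 21.2% of all 12260 genes were called, with medians of −0.11, 0.10 and 0.02. The balance depended on the samples: with samples 3, 4 and 5 of each treatment alone, 12 members were higher and 7 lower and the nuclear median was 0. This count is not set beside the share of all genes called in that fit. *Atp5g1* was at 583 to 994 CPM in 8 5C samples and at 1244, 1323 and 1376 in DMSO samples 3, 4 and 5, without overlap, as in 15 nuclear members where 17.7% of all genes did not overlap (−0.71, SE 0.13, edgeR adjusted p = 3.35e-04), and *Ndufv3* (−0.64) and *Cox8c* (−0.87) were lower too. *Uqcrc2*, at 42.3 to 72.7 CPM against 26.9, 32.9 and 37.3 (0.88, SE 0.24), *Ndufa1* (0.74) and *Cox5a* (0.67) were higher. Calls fell from 23 to 12 without DMSO sample 4 and to 10 without DMSO sample 5, and those of *Cox5a*, *Cox8c*, *Ndufa1*, *Ndufv3* and *Uqcrc2* were each lost with at least 1 sample left out. *Ndufa1* was at 1.17 without DMSO sample 3 and 0.49 without DMSO sample 4, and *Cox8c* at −0.56 without DMSO sample 3.

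The difference between 5C and DMSO was compared between clusters with an interaction term in edgeR. Under DMSO the RPG3 and RPG1 sums came from samples 1 and 2 and the SSC1-4 sums from samples 3, 4 and 5. A difference of RPG3 or RPG1 from SSC1-4 therefore cannot be told apart from one between these DMSO samples. Between RPG3 and SSC1-4 43 of 81 nuclear members differed, all with a lower log2 fold change of 5C over DMSO in RPG3 (median log2 difference −0.68). Of the mitochondrial members 0 of 12 differed and 5 had an unadjusted p under 0.05, where 1335 of 13698 genes differed. *Atp5g2* (−2.25, SE 0.51), *Uqcrc2* (−1.65, SE 0.40) and *Uqcrq* (−1.51, SE 0.23), a small subunit of complex III, had the largest differences. Between RPG1 and SSC1-4 *Cox6c* (−0.75) and *Ndufa7* (−0.71) were the 2 members called of 81, where 204 of 12554 genes were called. Between RPG3 and RPG1 0 of 81 were called (median −0.27) and 18 had an unadjusted p under 0.05, where 56 of 11755 genes were called; this does not show that the effects were equal. With the sample as a block, in the 5 samples that held both clusters, 1 of 81 was called, lower in RPG3 (median −0.28), where 95 of 10790 genes were called. With no block in those samples 0 were called, where 17 of 10790 genes were, with 15 at an unadjusted p under 0.05. For SSC1-4 no such block could be fitted, as no DMSO sample held at least 5 cells of SSC1-4 and of RPG3 or RPG1. DMSO samples 1 and 2 held 2 and 3 cells of SSC1-4.

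Genes around the respiratory chain were counted in lists. In RPG3 against SSC1-4, where 25.2% of all genes rose and 31.5% fell, 22 of 44 assembly factors rose and 4 fell (median log2 fold change 0.38), with *Ndufaf3*, a complex I assembly factor, at 69.6, 144 and 201 CPM against 0, 19.1 and 32.5 (2.90, SE 0.23) and *Taco1*, a translational activator of *mt.Co1*, lower (−0.91). Of 15 carriers and other genes outside the symbol rule 10 rose and 1 fell (0.41), with *Gpd2*, the mitochondrial glycerol phosphate dehydrogenase, at 123, 160 and 217 CPM against 0, 3.53 and 19.5 (4.95, SE 0.35). *Ucp2*, an inner membrane carrier, was at 89.3, 182 and 246 against 0, 5.61 and 19.04 (4.91, SE 0.32). Of 24 genes of the TCA cycle and pyruvate entry 11 rose and 4 fell (0.21), with *Idh2*, the mitochondrial isocitrate dehydrogenase, at 194, 282 and 372 CPM against 0, 4.34 and 18.5 (5.54, SE 0.38). *Mpc2*, a subunit of the pyruvate carrier, was at 109, 152 and 179 against 375, 518 and 721 (−1.85, SE 0.11). *Idh2*, *Gpd2*, *Ucp2* and *Mpc2* did not overlap between the groups.

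Of 20 genes for expression of the mitochondrial DNA 8 rose and 3 fell (median 0.09), of 75 mitochondrial ribosomal protein genes 48 rose and 6 fell (0.35), and of 13 regulators of mitochondrial biogenesis 6 rose and 1 fell (0.38). *Esrrb*, a nuclear receptor that is also a pluripotency factor, was at 63.8, 77.2 and 200.5 CPM against 0, 3.56 and 18.5 (4.49, SE 0.30). In RPG2, where 17.5% of all genes rose and 18.5% fell, the same 6 lists had 14 and 2, 8 and 1, 10 and 4, 7 and 1, 36 and 3, and 4 and 1 members higher and lower. In RPG4, where 12.6% of all genes rose and 15.1% fell, they had 10 and 3, 5 and 1, 5 and 6, 2 and 3, 12 and 13, and 2 and 0. In RPG1, where 2.58% of all genes rose and 2.03% fell, they had 0 and 1, 1 and 0, 1 and 1, 0 and 0, 0 and 2, and 0 and 0, with *Idh2* higher (1.56) and *Mpc2* lower (−0.32). The counts in RPG2 were mostly rises, as in RPG3, and those in RPG4 were mixed. Under 5C in RPG3, where 9.23% of all genes were lower and 6.36% higher, the mitochondrial ribosomal proteins moved the same way as the nuclear members, with 35 of 74 lower and none higher (median −0.65). Also lower were 8 of 42 assembly factors, 8 of 14 carriers, 2 of 23 TCA cycle genes and 1 of 20 expression genes, and 1 of 9 regulators was higher (*Pprc1*, 1.13).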

How the data were processed

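Modified STRT-seq and scTrio-seq2 RNA libraries were analysed from the filtered tables. The deposited values were UMI counts that the authors made with UMI-tools, their own trimming scripts, STAR 2.7.2b and featureCounts 2.0.0 on mm10, after removing cells with few genes or a high mitochondrial share, so high mitochondrial shares are cut off in these tables. The annotation, the strand setting and the handling of reads that match several genes are not given in the sources used here; several members have isoform paralogs or processed pseudogenes, and reads of overlapping mitochondrial genes may not be separable. Clusters were the authors' own, merged by name as described above, and in the scTrio-seq2 cells they were predicted by the authors with scPred.

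Counts were summed per library and cluster with at least 5 cells, normalised by TMM and tested with edgeR 4.0.16 (glmQLFit and glmQLFTest, filterByExpr, R 4.3.3) in 1 fit over 9 clusters, or over the groups compared for SSC3 against SSC1 and for 5C against DMSO, with Benjamini-Hochberg adjustment over all genes tested and calls below 0.05. The standard error of a log2 fold change was its size divided by the square root of F. Alternatives used DESeq2 1.42.0 and sums restricted or regrouped as given in the closing section. Python 3.11.15, pandas 2.3.3, scipy 1.17.1 and matplotlib 3.10.9 made the sums and plots. The code was tested on simulated data. Nothing in the labels says whether libraries came from separate cultures, so p-values measure the spread between libraries.

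The members and lists were chosen with earlier results of these data known. Named were, in RPG1 to RPG4, the 5 called nuclear members with the largest log2 fold change in each direction at a mean of at least 5 CPM in either group, the highest and lowest mitochondrial genes, the most abundant nuclear member per complex and the isoform groups; in other comparisons the 3 called members with the largest change in each direction; and in other lists up to 2. Further members were named after their values were seen where groups did not overlap or calls numbered 5 or fewer. Same-library sums were taken as pairs in the within-library shares, in the test of SSC3 against SSC1 and where a block is named. The main fit over 9 clusters had no library term. In 7 libraries with RPG1 and RPG3 the correlations of their deviations were 0.154 to 0.338. Intervals cover counting error only. A result for a member in the Neural cluster is not reported here.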

Additional observations from a re-analysis of the deposited data

Results flagged for a closer look

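Of 60 groups of 4 to 10 samples tested for a sample far from the others, 2 had one, where chance gives about 1 in 20. In the Fibroblast cluster the nuclear members held 2.84% of UMIs in the sum of day 27 replicate 5, below the other 4 sums. In 5C-treated RPG1, *Atp5g1* was at 1003 CPM in sample 5, above the other 3 samples. The difference between 5C and DMSO was tested for a difference between clusters with an interaction term in edgeR: 43 nuclear members differed between RPG3 and SSC1-4, and 2 between RPG1 and SSC1-4. The DMSO sums of SSC1-4 came from other samples than those of RPG3 and RPG1, so that cluster and sample cannot be told apart.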

How the results depend on the processing

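Counts of calls are of all members, and medians are log2 fold changes over nuclear or mitochondrial members. The share of all genes called also changes between fits, and these counts are given without it. A changed count, or a count of 0, is therefore no result about the members alone. Under the alternatives run other than leaving out a replicate, values for named genes kept direction and call in 640 cases, lost the call in 91 and reversed in 4, and summary values stayed close in 427 and moved in the 68 given here; with a replicate left out named values kept the call in 319 cases and lost it in 59. The cause of each change was not tested. In cells of at least 100000 UMIs the mitochondrial median was 0.08 in RPG1, −0.45 in RPG4, 0.05 in Meiotic and −0.59 for SSC3 against SSC1, the nuclear median of 5C in RPG3 was −0.59, the RPG4 median mitochondrial share was 0.580%, and calls numbered 2 in Fibroblast, 2 in Meiotic, 4 in Neural and 3 for 5C in SSC1-4. With sums per batch and day, calls numbered 0 in RPG1, 13 in RPG2, 37 in RPG3, 0 in Fibroblast, 0 in Early-pluripotency, 2 in Neural and 20 for RPG3 against RPG1, the RPG4 mitochondrial median was −1.02, and *Cox6a2* reversed to 1.65 in RPG1 and −4.1 for RPG3 against RPG1. With DESeq2 size factors the RPG4 medians were 0.09 and −0.55 and Fibroblast had 2 calls; by the DESeq2 test they were 0.09 and −0.55 and Meiotic had 2. With batch date as a covariate, chosen after seeing the data, the mitochondrial median was −0.62 in RPG4 and −0.25 in Meiotic, and calls numbered 5 in Fibroblast, 2 in Meiotic and 3 in Neural. With day as a covariate, also chosen after seeing the data, the RPG4 medians were 0.05 and −0.58, the mitochondrial median was −0.27 in Meiotic, and calls numbered 0 in Early-pluripotency, 10 in Meiotic and 2 in Neural. Without shallow SSC sums, also chosen after seeing the data, it was −0.59 in RPG4, and Meiotic had 1 call. With batch as a covariate Fibroblast had 2 calls and Early-pluripotency 0, with totals that leave out mitochondrial genes Early-pluripotency had 1, and with only the compared clusters fitted Neural had 5. Without a filter on low counts the 5C mitochondrial median was 0 in RPG3 and −0.11 in RPG1.

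With the library as a replicate block, calls numbered 0 in RPG1, 36 in RPG3, 0 in Fibroblast, 7 in Meiotic, 4 in Neural and 70 for RPG3 against RPG1. The mitochondrial median was 0.18 in RPG1, 0.04 in RPG2, −0.23 in Early-pluripotency and −0.57 in Meiotic, the nuclear median was 0 in Neural, and *mt.Nd3* in Early-pluripotency reversed to 0.13. In the same libraries without the block, calls numbered 0 in RPG1, 19 in RPG2, 21 in RPG3, 0 in Fibroblast, 0 in Early-pluripotency and 1 in Neural, the mitochondrial median was 0.15 in RPG1, 0.05 in RPG2, −0.24 in Early-pluripotency and −0.62 in Meiotic, the nuclear median was −0.14 in Meiotic and 0 in Neural, and *mt.Nd3* was 0.08. The 5C and DMSO sample numbers did not pair the samples in SSC1-4 (correlations 0.0130, 0.00698 and −0.0251); with the number as a block the nuclear median was 0.01 and 15 members were higher and 8 lower, the reverse of the 8 and 15 over all samples, and in the same samples without the block 12 were higher and 7 lower. The difference of 5C over DMSO, compared between RPG3 and RPG1, had 1 nuclear call with the sample as a block, chosen after seeing the data, in place of 0. In RPG1 and RPG3 no paired analysis was possible because 5C and DMSO samples shared fewer than 2 numbers.

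With each replicate left out in turn, calls ranged from 20 to 38 in RPG2, 9 to 11 in RPG4, 0 to 1 in Fibroblast, 0 to 1 in Early-pluripotency (0 without day 12 replicate 2 or day 18 replicate 4), 37 to 63 for 5C in RPG3, 17 to 25 in RPG1 and 10 to 24 in SSC1-4. The nuclear median ranged from 0.09 to 0.36 in RPG2. Mitochondrial medians ranged from −0.65 to −0.62 in RPG4, −0.54 to −0.31 in Early-pluripotency (−0.54 without day 18 replicate 4) and −0.22 to 0.07 for 5C in RPG3 (−0.22 without DMSO sample 2, 0.07 without DMSO sample 1). *Cox6b2* in RPG4 had a log2 fold change of 0.68 without day 20 replicate 1. Depth limits *mt.Atp6*, *mt.Atp8*, *mt.Co2*, *mt.Co3* and *mt.Nd4l*, *Cox6a2*, *Cox8b* and *Cox4i2*.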

Other observations

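The remaining lists and lines hold values outside the comparisons above. In the Neural cluster 17 of 75 mitochondrial ribosomal protein genes were lower than in SSC1-4 and 1 higher (median log2 fold change −0.18), where 4.97% of all genes were lower and 5.77% higher, while *Idh2*, the mitochondrial isocitrate dehydrogenase, was higher (2.21). In the Fibroblast cluster *Pdk4*, a kinase that inhibits pyruvate dehydrogenase, was higher (5.83), as was *Gpd2* (1.81). Between SSC3 and SSC1 4 of 8 regulators of mitochondrial biogenesis tested were higher in SSC3 and none lower, where 5.9% of all genes were higher and 6.91% lower, among them *Gabpb1* (0.94) and *Nrf1* (0.91), both of which encode activators of respiratory genes, while 49 nuclear members of the chain were lower. UMIs per cell moved with this comparison, and their part in it was not tested.

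*mt.Nd3*, chosen after its values were seen, had 5906 UMIs in gPSC at passage 1 (421 CPM), 2039 at passage 15 (188 CPM) and 5 in mES (0.338 CPM, exact Poisson 95% interval 0.110 to 0.788). *Cox8b*, a muscle-type isoform also chosen after its values were seen, had 25 UMIs in gPSC at passage 1 and 0 in the other 2 line libraries. Each line was 1 library, and these values have no replicate check.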
